A study of Mus musculus with 24 samples.

Results

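The aquaporins, the membrane channels for water and small solutes, were followed through tumor progression in the mammary gland. The set was taken as the rows of the gene count table whose Ensembl identifiers carry the symbols Aqp1, Aqp3, Aqp4, Aqp5, Aqp7, Aqp8, Aqp9 and Aqp11 in GENCODE M1. These were 8 of the 37991 genes in the table and 8 of its 12 aquaporins. Directional RNA sequencing after removal of ribosomal RNA was performed on snap-frozen mammary tissue of 24 female mice. The PyMT mice were F1 females heterozygous for the polyoma virus middle T antigen, which is driven by the mammary tumor virus (MMTV) promoter in mammary epithelium, from PyMT males bred to FVB females. The controls were homozygous FVB females without the transgene, of the same age and inbred background. Each genotype was sampled in 3 mice at week 6 (hyperplasia in PyMT), week 8 (adenoma/MIN), week 10 (early carcinoma) and week 12 (late carcinoma), so that there were 8 groups of 3.

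Aquaporins are tetrameric channels in which each subunit has its own pore. The water channels, among them Aqp1, Aqp4, Aqp5 and Aqp8, pass water along osmotic gradients, whereas the aquaglyceroporins Aqp3, Aqp7 and Aqp9 also pass glycerol, and the unorthodox member Aqp11 sits largely in the endoplasmic reticulum. Each is known for a compartment. Aqp1 is the channel of capillary endothelium and of red cells, Aqp5 lies in the apical membrane of secretory gland cells, and Aqp7 lets adipocytes release the glycerol of broken-down fat. Aqp4 is the channel of astrocytes and of fast skeletal muscle fibers, Aqp3 is found in the basolateral membrane of epithelia, and Aqp9 in liver and leukocytes.

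The aquaporin RNA of the gland changed its make-up between the genotypes. Scaled to exon length and library size (RPKM), Aqp1 held 62.2% ± 7.05 (SD, n = 12) of the summed level of the 8 genes in FVB mice and Aqp7 held 24.3% ± 5.14. In PyMT mice Aqp5 held 87.2% ± 5.53, against 5.54% ± 4.91 in FVB mice. Aqp1 was 5.22-fold and Aqp7 19.7-fold lower in PyMT than in FVB tissue, and Aqp5 was 21.9-fold higher, in a fit over all weeks. The normalized counts of these 3 genes did not overlap between the 12 PyMT and the 12 FVB samples.

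The stretches of 250 bases just before the start of these 3 genes are shown because they are the genes whose levels separated the genotypes. They were read from the mm9 genome on the strand of the gene, and capitals mark matches to the motifs searched. The motifs were AGGTCA (a nuclear receptor site), GGGCGG (the GC box), CACGTG (the E-box) and TATAAA (the TATA box), on both strands. The Aqp5 stretch is chr15:99421030-99421279 on the plus strand, the Aqp1 stretch is chr6:55286043-55286292 on the plus strand, and the Aqp7 stretch is chr4:40995173-40995422 on the minus strand.
Aqp5: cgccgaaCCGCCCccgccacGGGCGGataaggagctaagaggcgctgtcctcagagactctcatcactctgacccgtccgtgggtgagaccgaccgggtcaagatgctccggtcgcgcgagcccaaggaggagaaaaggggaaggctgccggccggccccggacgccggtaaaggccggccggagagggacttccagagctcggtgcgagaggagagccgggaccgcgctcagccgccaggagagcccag
Aqp1: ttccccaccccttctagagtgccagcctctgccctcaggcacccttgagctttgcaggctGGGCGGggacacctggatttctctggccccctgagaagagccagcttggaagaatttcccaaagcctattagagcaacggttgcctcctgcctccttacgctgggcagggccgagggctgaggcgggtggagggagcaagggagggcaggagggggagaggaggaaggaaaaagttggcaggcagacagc
Aqp7: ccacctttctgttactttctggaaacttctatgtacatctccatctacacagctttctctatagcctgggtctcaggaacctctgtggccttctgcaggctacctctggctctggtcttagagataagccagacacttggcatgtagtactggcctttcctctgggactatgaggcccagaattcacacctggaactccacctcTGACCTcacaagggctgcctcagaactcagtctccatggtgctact
The Aqp5 stretch held 28 CpG dinucleotides, more than in 91.6% of the 22333 promoters of the same length, whose median was 8. The Aqp1 stretch held 5 and the Aqp7 stretch held 0. The GC box occurred 2 times before Aqp5 and 1 time before Aqp1, and it was present in 39.6% of all promoters. The only match before Aqp7 was TGACCT, the nuclear receptor site read on the other strand, whose first base lay 46 bases before the start, and 12.5% of all promoters held this motif. The E-box (6.53% of promoters) and the TATA box (12.3%) were in none of the 3 stretches. The Aqp1 stretch ends at the RefSeq start, which lies 133 bases upstream of the start in GENCODE M1.

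Total counts ran from 6969375 to 13516601 per sample, with a median of 8280269. The smoothed number of genes by count was searched for its highest point from 5 reads up. In 13 libraries, 6 of PyMT and 7 of FVB mice, this point lay at 8 to 25 reads and not at 5. It is called the packet size, and counts under 5 were not compared with it. Genes of skeletal muscle took at least 0.1% of the counts in 7 libraries, 4 of FVB and 3 of PyMT mice. The 8 luminal epithelial markers had reads in every group, and their summed normalized count ran from 26814.5 to 48375 in PyMT and from 4626 to 20499 in FVB tissue. Lymphocyte markers were near 0, with sums of at most 52.5 in PyMT and 117 in FVB tissue. Normalized counts are counts divided by the size factors of DESeq2. In bulk tissue, fewer cells of a type and less RNA per cell cannot be told apart.

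The filter on low counts asked for a CPM (counts scaled to library size) of 1 or more in 12 or more samples, and 4 of the 8 aquaporins passed it, Aqp1, Aqp5, Aqp7 and Aqp11. Aqp4, Aqp3, Aqp9 and Aqp8 did not. A gene was called by edgeR's quasi-likelihood test where its adjusted p was under 0.05 and it differed by more than 2-fold. At week 6, 3 of the 4 were called, 1 higher and 2 lower in PyMT tissue, where 10.0% of the 14918 tested genes were called, 3.58% higher and 6.46% lower. At week 8, 1 was higher and 2 were lower, against 9.95% of all genes (3.57% higher, 6.37% lower). At week 10, 1 was higher and 2 were lower, against 13.9% (4.83% higher, 9.09% lower). At week 12, 1 was higher and 3 were lower, against 20.7% (7.75% higher, 13.0% lower). With the weeks as a block, all 4 were called, against 25.7% of all tested genes. Of all genes 8.51% were called higher and 17.2% lower in that fit, and of the 4 aquaporins 1 was higher and 3 were lower. Without overlap between the 12 PyMT and 12 FVB samples were 4.67% of the tested genes in the higher and 7.22% in the lower direction.

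**Figure D1:**
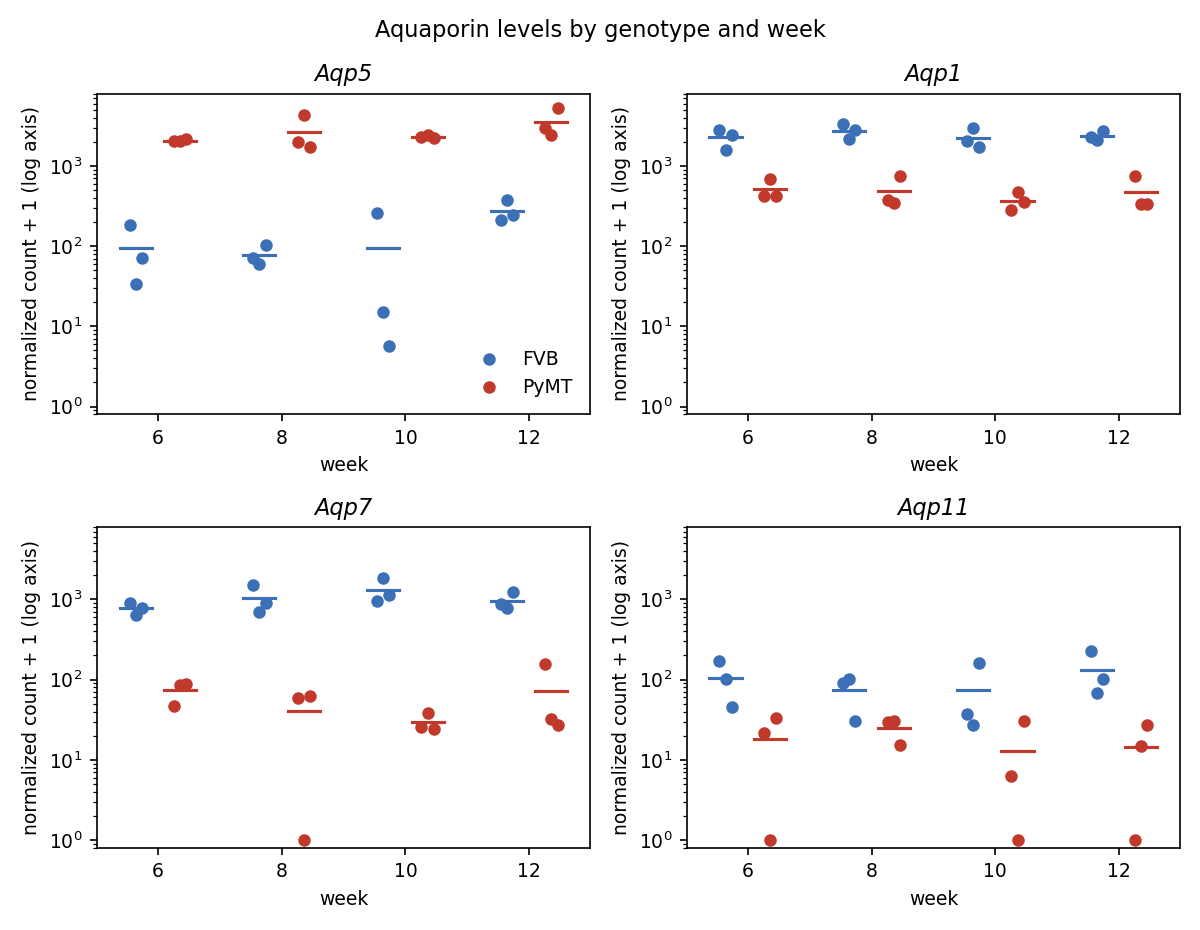
Normalized count plus 1 on a log axis for Aqp5, Aqp1, Aqp7 and Aqp11 by week, with 1 point per mouse (3 per group), FVB in blue, PyMT in red, and a line at the group mean. All 12 PyMT points lie above the FVB points for Aqp5 and below them for Aqp1 and Aqp7, whereas those of Aqp11 overlap in part.

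Aqp5 (ENSMUSG00000044217, chr15:99421280-99425260, plus strand) was the only tested aquaporin that was higher in PyMT tissue. At week 6 its normalized counts were 2027, 2023 and 2139.9 in PyMT and 181, 33.2 and 70.5 in FVB mice. At week 8 they were 1972, 4319 and 1709.8 in PyMT and 70.6, 59.3 and 102 in FVB mice. The PyMT values of week 6 lay within a narrow range, and PyMT week 8 replicate 2 stood above the other two of its group. At week 10 the counts were 2294, 2404 and 2243 in PyMT and 261, 14.0 and 4.69 in FVB mice. At week 12 they were 2947.5, 2440.3 and 5254.5 in PyMT and 211, 372 and 245 in FVB mice. The lowest PyMT value (1709.8) was above the highest FVB value (372), and the FVB values of week 10 were the most uneven of the 8 groups. All 3 FVB libraries of week 10 had a packet size, 12 in the one at 261, 13 in the one at 14.0 and 19 in the one at 4.69. Their mean log2(normalized count + 1) of the luminal epithelial markers was 10.1, 10.4 and 8.87 in the same order. The value of 8.87 was the lowest of the 24 libraries, and muscle genes took 4.72% of the counts of that library. The part of packets, epithelium or muscle in the spread was not tested.

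Over all weeks Aqp5 averaged 2648 ± 1063 (SD, n = 12) in PyMT and 135 ± 116 in FVB mice. The log2 fold change at week 6 was 4.45 (SE 0.56, adjusted p = 0.00303), and week 8 gave 5.10 (SE 0.43, adjusted p = 0.00223). Week 10 gave 4.61 (SE 1.19, adjusted p = 0.0348) and week 12 gave 3.74 (SE 0.37, adjusted p = 0.000392). With the weeks as a block it was 4.45, with a 95% interval of 3.59 to 5.31 (adjusted p = 3.8e-09). By size of increase Aqp5 took place 37 of the 14918 tested genes. The week 10 call was lost without FVB replicate 2 (log2 fold change 4.11, adjusted p = 0.0721) and without PyMT replicate 1 (4.61, adjusted p = 0.092), 2 (4.60, adjusted p = 0.0913) or 3 (4.61, adjusted p = 0.0782). Without FVB week 10 replicate 1, the mouse with 261 normalized counts, the week 10 value was 7.90 (adjusted p = 0.000808), and without FVB week 6 replicate 1 the week 6 value was 5.34 (adjusted p = 0.000352).

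The rise of Aqp5 was larger than that of the luminal epithelial markers. Of these 8 markers 7 were called higher with the weeks as a block, where 8.51% of all tested genes were called higher. Their median log2 fold change was 1.78 over the 8, against -0.03 over all tested genes. Elf5, a transcription factor of luminal progenitors, rose by 2.29 (SE 0.17) on the log2 scale, Ehf, an epithelial transcription factor, by 2.08 (SE 0.30), and Krt19 had a log2 fold change of -0.59 and was not called. On the log2(normalized count + 1) scale Aqp5 differed by 4.94 between the genotypes and the mean of the markers by 1.63, which leaves a difference of 3.31. This difference had an exact two-sided permutation p of 1.25e-05, with genotype permuted within weeks, which is the smallest that 160000 arrangements can give (adjusted over 3 aquaporins, p = 3.75e-05). Aqp5 relative to the markers was higher in each of the 12 PyMT samples than in any FVB sample. Week 6 gave a difference of 3.51, week 8 of 3.34, week 10 of 4.37 and week 12 of 2.04.

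Aqp5 lies in a row of 3 aquaporin genes on chromosome 15, all on the plus strand. Aqp2, the channel of the kidney collecting duct, ends 6303 bp before it, and Aqp6 begins 6570 bp after it. Aqp2 had 14 reads in all, in 3 PyMT libraries, and Aqp6 had 1 read. The high level in PyMT tissue was thus not seen in either neighbor of the cluster.

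**Figure D2:**
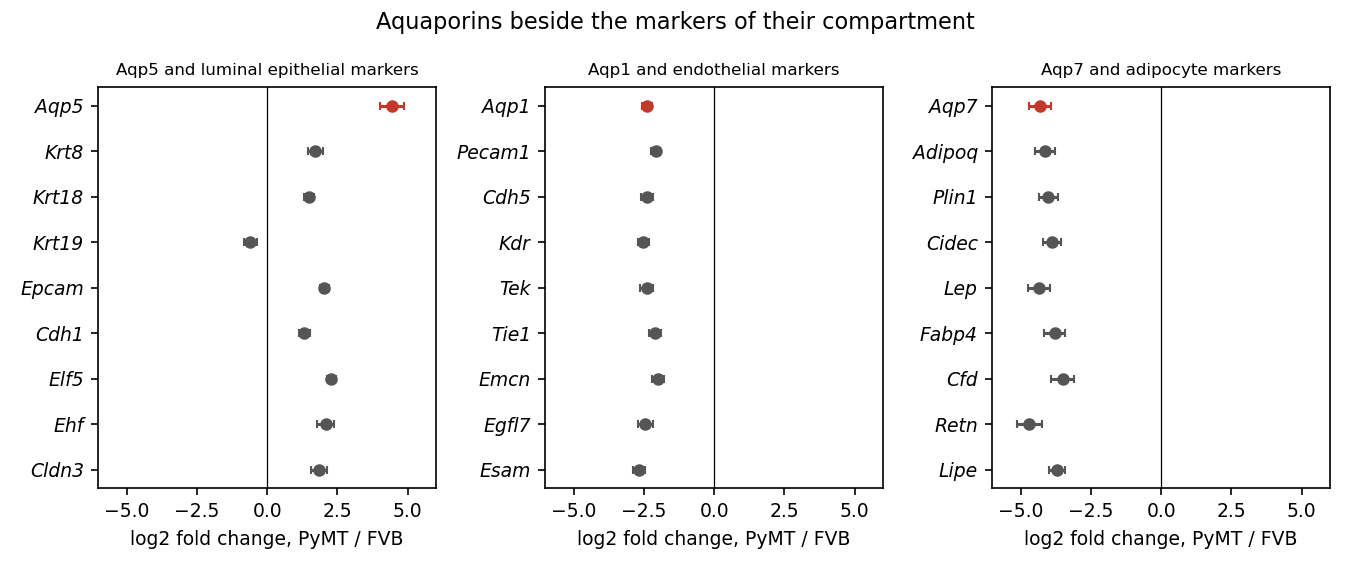
Log2 fold change of PyMT over FVB with the weeks as a block, with its standard error as a bar, for Aqp5, Aqp1 and Aqp7 (red) and for the 8 markers of the compartment each is known for (gray). Aqp5 at 4.45 lies above all luminal markers, whereas Aqp1 at -2.38 and Aqp7 at -4.30 lie among the endothelial and adipocyte markers.

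Aqp1 (ENSMUSG00000004655, chr6:55286426-55298549, plus strand) was lower in PyMT tissue at every week. At week 6 its normalized counts were 419, 691 and 416 in PyMT and 2812, 1577 and 2404 in FVB mice. At week 8 they were 379.7, 342 and 742 in PyMT and 3309, 2163 and 2792 in FVB mice. The groups were far apart, and 1 PyMT mouse in each of these weeks stood above the other two. At week 10 the counts were 278, 472 and 349.7 in PyMT and 2031, 2944 and 1715 in FVB mice. At week 12 they were 746, 335.5 and 334.5 in PyMT and 2309.8, 2123.5 and 2712 in FVB mice. The highest PyMT value (746) was below the lowest FVB value (1577).

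Aqp1 averaged 459 ± 169.5 in PyMT and 2408 ± 519 in FVB mice (SD, n = 12). Its log2 fold change at week 6 was -2.17 (SE 0.29, adjusted p = 0.00357), and week 8 gave -2.47 (SE 0.36, adjusted p = 0.00774). Week 10 gave -2.56 (SE 0.28, adjusted p = 0.00104) and week 12 gave -2.29 (SE 0.32, adjusted p = 0.0016). The value with the weeks as a block was -2.38 (95% interval -2.74 to -2.03, adjusted p = 5.21e-11).

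The endothelial markers fell by a like amount. All 8 were called lower with the weeks as a block, against 17.2% of all tested genes, and their median log2 fold change was -2.39. Among them Esam, a junction protein of endothelial cells, fell by 2.67 (SE 0.23) and Kdr, a receptor for VEGF, fell by 2.52 (SE 0.19) on the log2 scale. On the log2(normalized count + 1) scale Aqp1 differed by -2.44 and the marker mean by -2.39 between the genotypes. The difference of -0.04 was not past the test (exact two-sided permutation p = 0.756, adjusted p = 0.756), and it ran from -0.12 to 0.03 over the alternative settings. By week it was -0.28, -0.06, -0.07 and 0.24, so that the sign was not the same at each week. Aqp1 relative to the markers was above every FVB sample in 3 and below every FVB sample in 5 of the 12 PyMT samples. The summed endothelial markers ran from 791 to 2154 in PyMT and from 4952 to 9195 in FVB tissue, without overlap. Red cell markers were lower in PyMT tissue too. The 4 tested of 6 were all called lower, against 17.2% of all tested genes, with a median of -2.13. Hba-a1, an alpha globin, fell by 2.72 and Hbb-b2, a beta globin, by 2.19 on the log2 scale. The summed red cell markers ran from 339 to 1809 in PyMT and from 1770.0 to 9587 in FVB tissue, and reads of near-identical globin copies may be split between them. Within genotypes Aqp1 and the mean of the red cell markers had a Pearson r of -0.0658 in PyMT and 0.037 in FVB tissue over 12 samples each, given as a description. The part of vessels and of blood in the Aqp1 level was not tested.

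Aqp7 (ENSMUSG00000028427, chr4:40980107-40995172, minus strand) showed the largest fall of the 4 tested aquaporins with the weeks as a block. At week 6 its normalized counts were 46.3, 85.5 and 86.2 in PyMT and 914, 643 and 787 in FVB mice. At week 8 they were 57.2, 0 and 62.3 in PyMT and 1518, 706 and 913 in FVB mice. The PyMT library at 0, week 8 replicate 2, had a packet size of 23. It also had the lowest mean log2(normalized count + 1) of the adipocyte markers among the 24 libraries, 6.10. The part of either in the 0 was not tested. At week 10 the counts were 24.9, 37.7 and 23.0 in PyMT and 965, 1845 and 1139 in FVB mice. At week 12 they were 156, 31.0 and 25.9 in PyMT and 888, 774 and 1230.2 in FVB mice. The PyMT value of 156 (week 12 replicate 1) stood apart from the others of its group and was still below the lowest FVB value (643).

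Aqp7 averaged 53.0 ± 41.5 in PyMT and 1027 ± 355 in FVB mice (SD, n = 12). Week 6 gave a log2 fold change of -3.43 (SE 0.32, adjusted p = 0.00138) and week 8 gave -4.65 (SE 1.01, adjusted p = 0.0258). Week 10 gave -5.48 (SE 0.36, adjusted p = 0.00015) and week 12 gave -3.73 (SE 0.64, adjusted p = 0.00401). With the weeks as a block it was -4.30 (95% interval -5.13 to -3.47, adjusted p = 4.02e-09), place 94 among the decreases of the 14918 tested genes. The week 8 call was lost without FVB replicate 2 (log2 fold change -4.87, adjusted p = 0.068) or 3 (-4.71, adjusted p = 0.057) and without PyMT replicate 1 (-4.96, adjusted p = 0.092) or 3 (-5.17, adjusted p = 0.0676). Without PyMT week 12 replicate 1 the week 12 value was -5.02 (adjusted p = 0.000896).

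All 8 adipocyte markers were called lower as well, against 17.2% of all tested genes, with a median log2 fold change of -3.95. Among them Retn, the hormone resistin, fell by 4.69 (SE 0.45) and Lep, the hormone leptin, fell by 4.34 (SE 0.40) on the log2 scale. On the log2(normalized count + 1) scale Aqp7 differed by -4.78 and the marker mean by -4.17. The difference of -0.61 missed the threshold (exact two-sided permutation p = 0.0566, adjusted p = 0.0849). It was past the threshold with the median in place of the mean of the markers (-0.70, adjusted p = 0.0451), without PyMT week 8 replicate 3 (-0.77, adjusted p = 0.0315) and without PyMT week 12 replicate 1 (-0.77, adjusted p = 0.000206). In the other 25 of 28 alternatives it missed the threshold. Over all 28 the difference ran from -0.77 to -0.34, with adjusted p of up to 0.254 in the same test. Week 6 gave a difference of -0.84, week 8 of -1.49, week 10 of -0.49 and week 12 of 0.40, so that the sign was not the same at each week. The summed adipocyte markers ran from 1013.5 to 15456.5 in PyMT and from 46492 to 129895 in FVB tissue, so that adipocyte RNA moved with Aqp7, and its part in the fall was not tested beyond this comparison.

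The genes that make, store and break down fat, for which Aqp7 is the glycerol exit, mostly fell with it. Of the 12 genes listed for glycerol and fat storage, 10 were called lower and 2 higher with the weeks as a block, with a median of -2.74. Of all tested genes 17.2% were called lower and 8.51% higher in that fit. Lipe and Plin1 are also adipocyte markers here. Dgat2, which makes triglyceride, fell by 4.10 (SE 0.40) and Plin1, the coat protein of the fat droplet, by 4.01 (SE 0.34) on the log2 scale. The 2 that rose were Abhd5, the co-activator of fat lipase, with a log2 fold change of 1.35 (SE 0.16), and Gk (Gyk in the annotation), the kinase that traps glycerol in the cell, with 1.23 (SE 0.27), named here after their values were seen. Aqp3, the other aquaglyceroporin on chromosome 4, lies 44582 bp from Aqp7 on the same strand, and Nfx1, a transcription factor gene 7080 bp on its other side, had a log2 fold change of 0.23 (adjusted p = 0.0988).

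Aqp11 (ENSMUSG00000042797, chr7:104874889-104886757, minus strand), whose loss in mice is known to cause cystic kidneys, was low in both genotypes. At week 6 its normalized counts were 20.5, 0 and 31.8 in PyMT and 171.5, 100.3 and 44.1 in FVB mice. At week 8 they were 28.6, 29.1 and 14.1 in PyMT and 90.8, 101 and 29.4 in FVB mice. The groups did not overlap at these weeks, although the distance at week 8 was small. At week 10 the counts were 5.34, 0 and 29.9 in PyMT and 36.7, 26.1 and 159.6 in FVB mice. At week 12 they were 0, 13.9 and 25.9 in PyMT and 225, 68.1 and 100.6 in FVB mice. At week 10 the groups overlapped, and over all weeks 8 of the 12 PyMT samples were below every FVB sample. The 3 PyMT libraries at 0 had packet sizes of 25, 15 and 12, and the other 3 PyMT libraries with a packet size (14, 13 and 23) had Aqp11 at 20.5, 31.8 and 29.1.

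The mean of Aqp11 was 16.6 ± 12.7 in PyMT and 96.1 ± 62.3 in FVB mice (SD, n = 12). It was called only at week 12, with a log2 fold change of -3.22 (SE 1.03, adjusted p = 0.0491). The other weeks gave -2.56 (adjusted p = 0.218), -1.62 (adjusted p = 0.216) and -2.55 (adjusted p = 0.316). The week 12 call was lost in 7 of 12 alternatives, among them without FVB replicate 1 (-2.59, adjusted p = 0.168) or 3 (-3.38, adjusted p = 0.0851) and without PyMT replicate 2 (-3.25, adjusted p = 0.128) or 3 (-4.17, adjusted p = 0.0671). Without PyMT week 12 replicate 1, which was at 0, it was -2.64 (adjusted p = 0.0341). With the weeks as a block the value was -2.50 (95% interval -3.81 to -1.19, adjusted p = 0.0019), and without the 13 libraries that had a packet size it was -2.09 (adjusted p = 0.0837). The 4 FVB libraries rich in muscle genes had Aqp11 at 171.5, 100.3, 159.6 and 225, and the other 8 had it at 26.1 to 101. Without the 7 muscle-rich libraries the value with the weeks as a block was -2.16 (adjusted p = 0.0154).

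Aqp4 (ENSMUSG00000024411, chr18:15547903-15562193, minus strand) did not pass the filter, with reads in 11 of the 24 libraries. At week 6 its normalized counts were 34.7, 22.9 and 0 in PyMT and 743, 189.7 and 0.881 in FVB mice. At week 8 they were 0 in all PyMT mice and 1.26, 0 and 0 in FVB mice. Within FVB week 6 the values ran from 0.881 to 743, and the genotypes overlapped at both weeks. At week 10 the counts were 0, 0 and 39.2 in PyMT and 0, 0 and 992 in FVB mice. At week 12 they were 0 in all PyMT mice and 613, 25.2 and 12.0 in FVB mice. The 7 libraries with the highest share of skeletal muscle genes, 4 FVB and 3 PyMT, were among the 8 with the highest Aqp4, and in each of the other 9 PyMT libraries Aqp4 was at 0.

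The summed skeletal muscle markers ran from 0 to 33675 in PyMT and from 76.6 to 599983 in FVB tissue. All 8 were called lower in PyMT tissue with the weeks as a block, against 17.2% of all tested genes, with a median of -4.82. Pvalb, a calcium buffer of fast fibers, had a log2 fold change of -5.02 (SE 1.51) and Ckm, the muscle creatine kinase, -5.01 (SE 1.46). Since the libraries formed a muscle-rich and a muscle-poor cluster, no correlation over all of them is given. Within the 8 muscle-poor FVB libraries, Aqp4 and the mean of the muscle markers had a Pearson r of 0.719 (exact permutation p = 0.0446) and a Spearman rho of 0.66 (exact permutation p = 0.0845), and leaving out the 2 libraries with the most extreme marker means gave 0.399, so that the relation rested on these. With no filter on low counts, a fit of 26153 genes with the weeks as a block gave Aqp4 a log2 fold change of -5.08 (SE 1.15, adjusted p = 0.000663). The level of muscle RNA moved with this value, and its part was not tested.

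**Figure D3:**
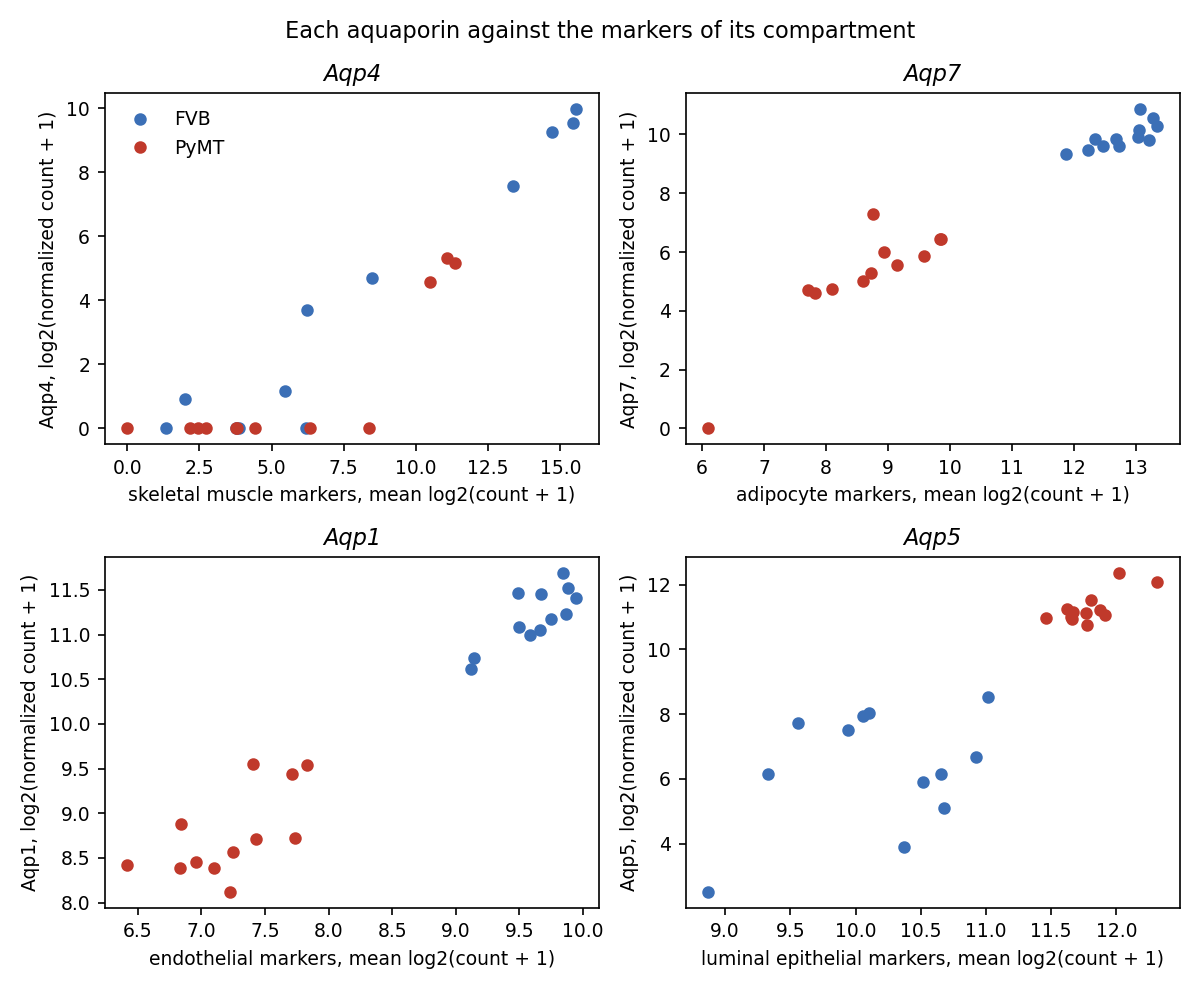
Each aquaporin against the mean of the 8 markers of its compartment, both as log2(normalized count + 1), with 1 point per library (12 FVB in blue, 12 PyMT in red). Aqp4 is at 0 in all PyMT libraries with few muscle reads, Aqp7 rises with adipocyte markers in both genotypes, and for Aqp5 the PyMT points lie above the FVB points on both axes, without a shared range of marker level.

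Besides 2 of Aqp4, 4 relations within a genotype were past the threshold among 12 tested (adjusted p over the 12, 100000 permutations). They were those of Aqp7 in both genotypes, of Aqp1 in FVB and of Aqp5 in PyMT tissue. Aqp7 and the adipocyte markers had a Pearson r of 0.877 (permutation p = 0.00061, adjusted p = 0.00366) and a Spearman rho of 0.867 (permutation p = 0.00055) in the PyMT samples, and r was 0.677 once the 2 samples with the most extreme marker means were left out. In the FVB samples r was 0.751 (permutation p = 0.00519, adjusted p = 0.0125), rho 0.769 (permutation p = 0.00496) and r without the 2 samples 0.606. The relation of Aqp7 to fat markers thus held in sign without these samples. Aqp1 and the endothelial markers had an r of 0.797 in FVB (permutation p = 0.00172, adjusted p = 0.00516) with a rho of 0.65 (permutation p = 0.0262), and r fell to 0.465 without 2 samples. In PyMT tissue r was 0.615 (permutation p = 0.0356, adjusted p = 0.0611) and rho 0.629 (permutation p = 0.032), and r without 2 samples was 0.497. The FVB relation of Aqp1 therefore rested in part on those 2 samples. Aqp5 and the luminal markers had an r of 0.733 in PyMT tissue (permutation p = 0.00914, adjusted p = 0.0183), a rho of 0.545 (permutation p = 0.0708) and 0.636 without 2 samples. In FVB tissue Aqp5 gave r = 0.342 (permutation p = 0.275, adjusted p = 0.367), rho = 0.161 (permutation p = 0.618) and -0.247 without 2 samples. Markers of other compartments went with these genes as well, and their values are given as descriptions. In PyMT tissue the r of Aqp5 was -0.731 with the endothelial and -0.639 with the adipocyte markers, and that of Aqp7 was 0.759 with the endothelial and -0.696 with the luminal markers. Nothing here shows a relation to be particular to 1 compartment. All points of a relation share the depth and packet size of their library.

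The remaining members were scarce. Aqp9 (chr9:70958466-71016489) had reads in 18 libraries, at most 36 in any, with 115 in all PyMT and 75 in all FVB libraries, and its normalized counts averaged 7.07 ± 7.29 and 6.96 ± 5.60 (SD, n = 12). Aqp3 (chr4:41039755-41045216) had reads in 7 libraries, at most 20, with 28 in PyMT and 30 in FVB tissue. In the fit with no filter on low counts neither was called, with log2 fold changes of 0.27 (SE 0.98, adjusted p = 0.866) for Aqp9 and 0.77 (SE 1.25, adjusted p = 0.67) for Aqp3. Aqp8 (chr7:130605808-130611517), known from pancreas and colon, had 0 reads in all 24 libraries, which allows a level of up to 0.0283 CPM in PyMT and 0.0281 CPM in FVB tissue, from 3 counts over the summed libraries and for counting error only. The other four family members in the table, Mip, Aqp2, Aqp6 and Aqp12, had at most 14 reads each. The relations of Aqp9 to myeloid markers and of Aqp3 to luminal markers missed the threshold in both genotypes (adjusted p of 0.138 and 0.427, and of 0.636 and 0.639, PyMT first). Of the 8 myeloid markers, which stand for leukocytes, 1 was called higher with the weeks as a block, against 8.51% of all tested genes. It was S100a8, a calcium-binding protein of neutrophils, with a log2 fold change of 5.70 (SE 0.77). The other 7 were not called, among them Csf3r with 0.10 (SE 0.73), and the median over the 8 was 0.12.

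**Figure D4:**
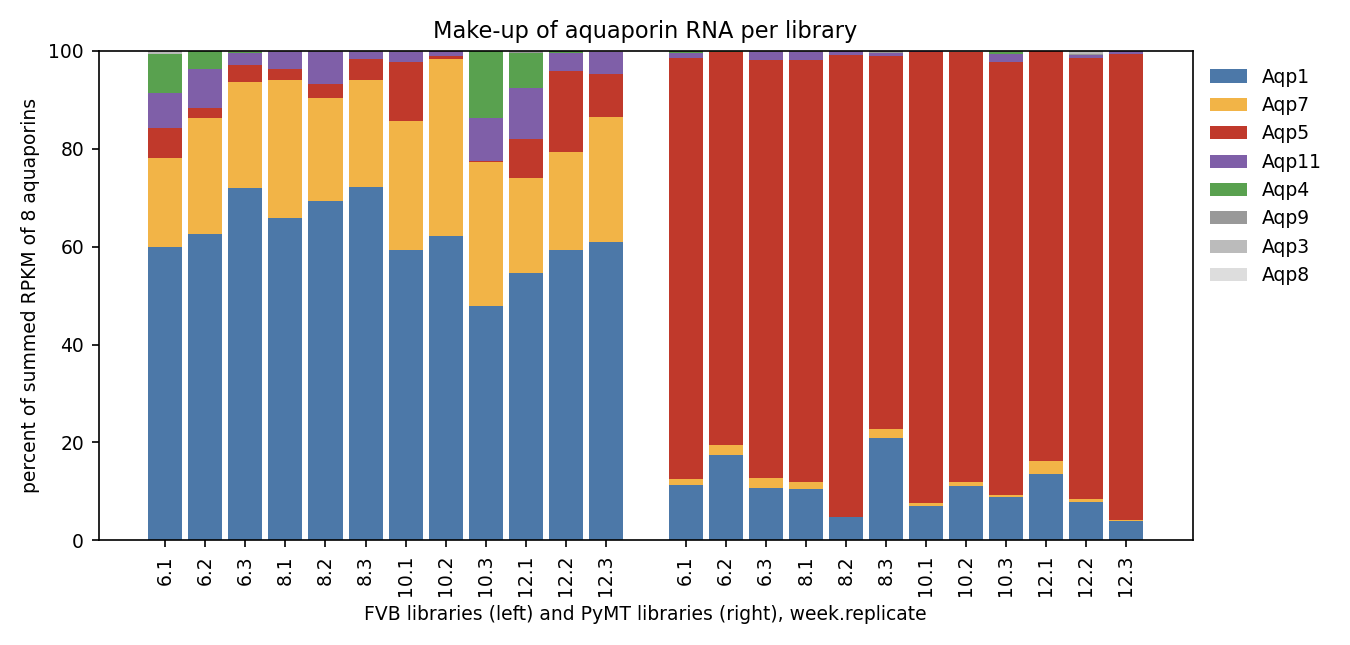
Share of each aquaporin in the summed RPKM of the 8 genes, in percent, as 1 stacked bar per library, with the FVB libraries on the left and the PyMT libraries on the right, named by week and replicate. Aqp1 (47.8% to 72.2%) and Aqp7 fill most of each FVB bar, whereas Aqp5 fills 76.2% to 95.3% of each PyMT bar.

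Compared per length, the order of the aquaporins differed between the genotypes. In FVB tissue Aqp1 led with 96.7 ± 23.8 RPKM (SD, n = 12), followed by Aqp7 with 38.1 ± 14.4, and Aqp1 was above Aqp7 in 12 of 12 libraries. Next came Aqp5 with 8.60 ± 7.67, Aqp11 with 7.14 ± 3.82 and Aqp4 with 3.47 ± 5.51 RPKM. These 3 did not differ beyond their spread, and Aqp5 was above Aqp11 in 5 and Aqp11 above Aqp4 in 10 of 12 libraries. In PyMT tissue Aqp5 led with 207.5 ± 82.7 RPKM, above Aqp1 with 22.8 ± 8.41 in every library, and their ranges did not overlap. Aqp7 followed with 2.44 ± 1.90 and Aqp11 with 1.64 ± 1.25 RPKM, which did not differ beyond their spread, with Aqp7 the higher in 8 of 12 libraries. Aqp9, Aqp4 and Aqp3 were at 0.225 ± 0.233, 0.193 ± 0.360 and 0.175 ± 0.454 RPKM in PyMT tissue, none apart from the next. The sum of the 8 was 235.0 ± 79.9 RPKM in PyMT and 154 ± 29.7 RPKM in FVB tissue, with ranges that overlapped (177.5 to 432 against 107 to 209.7). The largest Aqp4 share was 13.7%, in FVB week 10 replicate 3, whose muscle genes took 4.72% of the counts.

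The aquaporins did not pass the test for a change along progression. Between week 12 and week 6 none of the 4 tested was called in PyMT tissue, in FVB tissue or in the change of the difference between them, and the fit called 0 of 14918 genes (0.0%) in each of these 3 contrasts by edgeR's quasi-likelihood test. At an unadjusted p under 0.05 there were 1004 genes in PyMT, 625 in FVB and 691 in the change of the difference. Many genes pass such a threshold by chance among 14918, and these numbers were not tested against that. The largest of these values among the aquaporins was that of Aqp5 in FVB mice, a log2 fold change of 1.52 with a 95% interval of -0.10 to 3.14 (adjusted p = 1), from 94.8 ± 76.8 to 276 ± 84.7 normalized counts (SD, n = 3). In PyMT mice the value of Aqp5 was 0.79 with an interval of -0.75 to 2.32 (adjusted p = 0.95), from 2063 ± 66.3 to 3547 ± 1500.0 normalized counts. The changes of the PyMT-FVB difference were -0.14 for Aqp1 (interval -1.14 to 0.86), -0.73 for Aqp5 (-2.94 to 1.47), -0.31 for Aqp7 (-2.30 to 1.68) and -0.69 for Aqp11 (-4.38 to 3.00). These intervals hold changes of more than 2-fold in either direction for Aqp5, Aqp7 and Aqp11.

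Genes of the ion transport that drives fluid across epithelia, which a water channel such as Aqp5 serves, were looked at beside the aquaporins. Of the 12 listed, 10 were tested, and 3 were called higher, 3 lower and 4 were not called with the weeks as a block, where 8.51% of all tested genes were called higher and 17.2% lower. Kcnn4, a calcium-activated potassium channel, rose from 185 ± 127.5 to 3869.9 ± 935 normalized counts (SD, n = 12), a log2 fold change of 4.50 (SE 0.37, adjusted p = 3.84e-10), close to that of Aqp5. Scnn1a, a subunit of the epithelial sodium channel, fell by 2.84 on the log2 scale (SE 0.48, adjusted p = 2.5e-05). The subunits Scnn1b and Scnn1g of this channel, named after their values were seen, had log2 fold changes of 0.80 (SE 0.26) and 0.36 (SE 0.70). Neither was called. Ano1, a chloride channel named after its value was seen, also rose, with a log2 fold change of 1.68 (SE 0.14). Cftr, the chloride channel of many secretory glands, did not pass the filter.

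The genes of the response to tonicity, which guards cell volume when water moves, were counted in the same way. Of 10 listed 9 were tested, 3 were called lower, none higher and 6 were not called, with a median of -0.21 against -0.03 over all tested genes, of which 17.2% were called lower and 8.51% higher. Trpv4, a calcium channel that opens on cell swelling, fell by 1.90 (SE 0.35) and Slc6a6, the taurine carrier, by 1.15 (SE 0.13) on the log2 scale. Nfat5, the transcription factor of the response, had a log2 fold change of -0.17 (SE 0.09) and was not called, and it is named after its value was seen. Of the 8 basal markers, 5 were called lower, Cnn1 (a log2 fold change of -3.20) and Oxtr (-3.13), both of the contractile myoepithelium, the most. The other 3, Krt5 (-0.0), Krt14 (0.22) and Trp63 (-0.10), were not called, and they are named after their values were seen.

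The genes most like each aquaporin were sought over the 24 samples among the other 14917 tested genes, after the mean of each genotype had been taken off the log2(normalized count + 1) values. For Aqp7 they were Kbtbd11 (Pearson r = 0.956), Aoc3 (0.946), an amine oxidase of adipocytes and smooth muscle, and Gucy1a2 (0.915), a guanylate cyclase subunit. For Aqp1 they were Nrp1 (0.73), a co-receptor for VEGF, Heg1 (0.719), a receptor of the developing heart and vessels, and Adamts12 (0.714). For Aqp5 they were Cd82 (0.86), a tetraspanin, Gch1 (0.843), the first enzyme of tetrahydrobiopterin synthesis, and Sdf2l1 (0.818), an endoplasmic reticulum protein. Several of these values came mainly from 1 genotype. In PyMT and FVB tissue, in this order, r with Aqp5 was -0.0938 and 0.89 for Gch1 and 0.252 and 0.861 for Sdf2l1. It was 0.904 and 0.316 for Adamts12 with Aqp1, and 0.94 and 0.34 for Gucy1a2 with Aqp7. For Aqp11 they were Snx32 (0.904), Gstm4 (0.90) and Zfp385a (0.863). These are descriptions of the most extreme of many values, and libraries at 0 for Aqp7 or Aqp11 weigh heavily in them.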

How the data were processed

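RNA was sequenced from 24 mammary samples, 3 mice in each of 8 groups by genotype and week. The authors trimmed the reads and aligned them to mm9 (GSNAP). HTSeq gave the counts of each Ensembl gene, which the authors deposited raw, without normalization, and no column of another sample was present. Libraries were directional, but the strand setting of the counting is not given in the sources used here. No gene of GENCODE M1 overlapped a listed aquaporin. The depth of 6969375 to 13516601 counts sets the precision, and the floor of 3 counts covers counting error only.

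Fits used edgeR 4.0.16 (TMM scaling, quasi-likelihood test, Benjamini-Hochberg adjustment over 14918 genes) and DESeq2 1.42.0 under R 4.3.3. Permutations and figures used SciPy 1.17.1, NumPy 2.4.6, matplotlib 3.10.9 and pandas 2.3.3 under Python 3.11.15. Each week was fitted on its 6 samples, genotype over all weeks with week as a block, and changes between weeks 6 and 12 in 8 groups of 24 samples. RPKM used the exon length in GENCODE M1. A marker level was the mean of log2(normalized count + 1) over 8 genes. The fits were tested on simulated data. The members, lists and tests were chosen with earlier results of these data known. Named were the 8 aquaporins, the other family members by counts, the 2 called genes of each list with the largest change, and the 3 genes most like each tested aquaporin, with exceptions said in place. Alternatives were DESeq2, other scalings, no filter, a shared fit, a replicate block, pseudocounts, TMM-scaled counts, the median of the markers, left-out libraries and, added after seeing the data, leaving out muscle-rich libraries and shares of counts not divided by length. Promoters were read from mm9. Protein sequences were not used here. Replicates are separate mice, 3 per group, by the study's methods. The value of 1 listed gene is not reported here.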

Additional observations from a re-analysis of the deposited data

How the results depend on the processing

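The number of aquaporins called was 3 at week 6 in each fit that left out 1 replicate, 2 to 3 at weeks 8 and 10, 3 to 4 at week 12, 4 with the weeks as a block and 0 for changes between weeks. The calls of Aqp1, Aqp5 and Aqp7 with the weeks as a block held under 31 alternatives each, including the fit without the libraries rich in muscle genes. DESeq2 gave Aqp5 at week 10 no adjusted p (NA). Aqp11 at week 12 was not called with 1 spread shared by 24 samples (-3.26, adjusted p = 0.0945) or with scaling by library size only (-2.85, adjusted p = 0.0537). The number of aquaporins shifted against their markers was 1, 2 with the median of the markers, and 1 to 2 with 1 replicate left out. Of 12 relations to markers 6 were past the threshold, and 0 of the 6 in PyMT tissue were without the libraries with a packet size, which leaves 6 PyMT samples, with r of 0.832 for Aqp1, 0.779 for Aqp5 and 0.904 for Aqp7. For Aqp4 no r is given there, since 1 of these samples alone had reads. The share of Aqp5 in PyMT aquaporin RNA was 81.6% of counts not divided by length.

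Values near 0 changed sign when 1 replicate was left out, and the cause was not tested. The changes of the PyMT-FVB difference ran from -0.61 to 0.12 for Aqp1, -1.60 to 0.09 for Aqp7 and -1.62 to 0.11 for Aqp11. PyMT week 12 against week 6 ran from -0.57 to 0.16 for Aqp1, -1.33 to 0.36 for Aqp7 (0.00 with library size only) and -1.33 to 0.39 for Aqp11. FVB week 12 against week 6 ran from -0.16 to 0.24 for Aqp1 and -0.37 to 0.84 for Aqp11, and Aqp1 against endothelial markers from -0.11 to 0.03. Scaling by library size only moved the median of all genes with the weeks as a block from -0.03 to 0.26 (log2), and the share of lower genes among calls from 67.0% to 49.4%, while no tested aquaporin changed direction in a comparison of the genotypes.

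The main fits did not use replicate numbers to pair the samples. Deviations of the 12 same-numbered PyMT and FVB pairs correlated by -0.0251 to 0.177, and 4 pairs were over 0.1. Pairs with different numbers, taken within a week, ran from -0.133 to 0.0908, so none of these was over 0.1. The ranges overlapped, with the highest values in same-numbered pairs, and a shared replicate effect was not tested. With the replicate block Aqp11 was not called at week 12 (-3.34, adjusted p = 0.106), and the counts of called aquaporins were 3 at each week, 4 with the weeks as a block and 0 for the change between weeks, so no other call changed. Counts below about 20 reads in libraries with a packet size limit what can be said of Aqp3, Aqp9 and Aqp11.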
